A study of Mus musculus with 36 samples.

Results

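The genes described here encode the eukaryotic translation initiation factors. They were taken from the deposited expression table as every symbol that starts with Eif and a digit, and 46 such genes of 12762 remained after 8 related symbols were left out, namely the eIF2 alpha kinases, the eIF4E binding proteins and 1 pseudogene. The rule uses symbols and not measured values. Initiation is the step at which the small ribosomal subunit, loaded with the initiator tRNA, is recruited to an mRNA and finds the start codon. eIF2 carries the tRNA and is recharged by the exchange factor eIF2B, eIF4F (eIF4E, eIF4G and eIF4A) binds and unwinds the capped end of the mRNA, and eIF1, eIF1A, eIF3 and eIF5 act on the small subunit until the large subunit joins. In B cell progenitors protein synthesis is high while the cells grow and divide, and several initiation factor genes are textbook targets of the growth regulator Myc.

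B3 cells, a mouse pre-B cell line, had been transduced with an MSCV retrovirus and sorted for GFP. Ikaros cells carried HA-tagged Ikaros fused to the ERt2 hormone-binding domain, followed by an IRES and GFP, and control cells carried ERt2, IRES and GFP alone. The drug 4-hydroxy-tamoxifen (4-OHT, 0.5 uM) moves the fusion protein into the nucleus, and both lines received it. Each line was collected at 0, 2, 6, 12, 18 and 24 h, with 3 mRNA libraries per time point and line, 36 in all. The labels give the same 4-OHT dose for every library, whereas in the study's methods the 0 h cells received no drug and were grown in separate cultures. Replicates were numbered culture batches, 1, 2 and 4 at 0 h and 1, 3 and 4 later, of 1 transduced population per line, so a stable difference between the populations cannot be told apart from an effect of the construct at 0 h.

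The values are deposited log2 expression values, adjusted for gene length and GC content, and a difference of 1 is a doubling or a halving. Replicates of a group correlated at 0.962 to 0.992 over all genes, and the depth reached is unknown. Ikzf1, the gene that encodes Ikaros, was higher in the Ikaros libraries at all 6 times, with log2 differences of 5.19 to 6.26. The pre-B markers Cd79a and Pax5 were high (medians over libraries 18.46 and 16.30), while Dntt (8.18) was low for this table. Of the T cell, myeloid, erythroid and stromal markers looked up, Cd5 (8.40), Lyz2 (6.57), Itgam (5.43), Hbb-b1 (5.61) and Hbb-b2 (12.57) were in the table, and their part in the results was not tested. Values are relative within a library, and in bulk samples fewer cells of a type and less RNA per cell cannot be told apart. A gene was called at a limma adjusted p under 0.05, with Benjamini-Hochberg adjustment over all 12762 genes.

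Initiation factor mRNAs fell in the Ikaros cells relative to control as a broad but uneven group, mainly from 12 h on. Against control at 0 h, 4 of the 46 genes were called, where 8.33% of all genes were. Of these 1 was higher (all genes 4.61%) and 3 were lower (all genes 3.72%). After 2 h of 4-OHT 2 were called, where 19.1% of all genes were, 1 of them higher (all genes 9.18%) and 1 lower (all genes 9.88%). By 6 h there were 15 (all genes 37.3%), with 3 higher (all genes 18.1%) and 12 lower (all genes 19.2%). The 24 called at 12 h (all genes 45.8%) were 3 higher (all genes 23.0%) and 21 lower (all genes 22.8%), and the 28 called at 18 h (all genes 58.2%) were 2 higher (all genes 29.0%) and 26 lower (all genes 29.2%). The last time point had 34 (all genes 62.9%), 5 of them higher and 29 lower. The share called was thus close to that of all genes except at 2 h, where it was smaller, and at 24 h, where it was larger. The direction differed more: at 24 h 63.0% of the factors were called lower and 10.9% higher, beside 31.9% lower and 31.0% higher among all genes. The median log2 difference of the factors was -0.34 at 24 h, beside -0.01 for all genes. Of the 46, 12 were called lower by at least 1 on the log2 scale at 24 h (26.1%, all genes 16.5%) and none was called higher by that much. In 33 all 3 Ikaros libraries lay below all 3 control libraries at 24 h (all genes 36.1%) and in 6 they lay above (all genes 35.0%). Batch 1 and the second batch (2 at 0 h, 3 later) weighed on these counts: at 0, 2, 6 and 24 h the counts were 0, 0, 5 and 20 without batch 1 and 0, 1, 5 and 19 without the second batch, which also left 13 at 12 h. With only the groups compared in the fit the count at 6 h was 2 and that at 2 h was 1. With the 0 h cultures as a replicate block of their own the count at 2 h was 5.

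**Figure D1:**
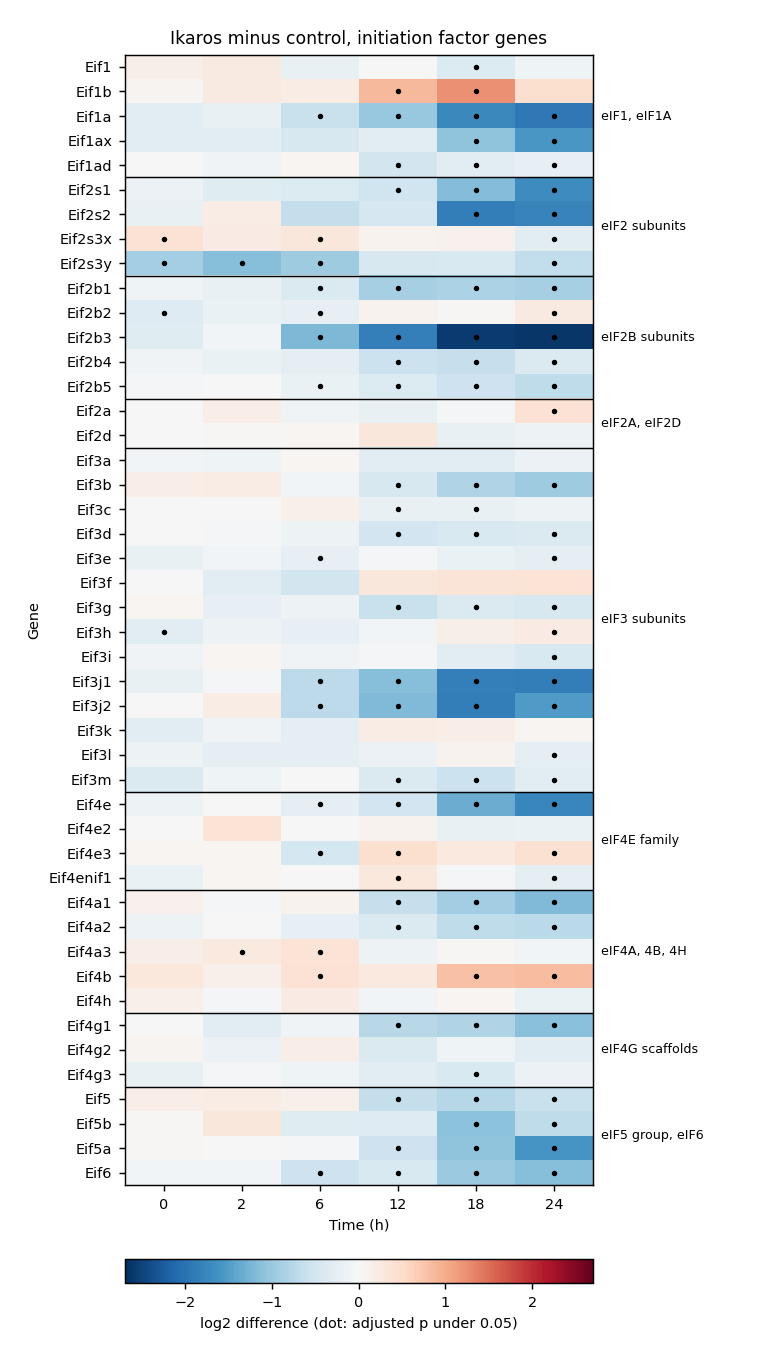
Log2 difference of Ikaros minus control for the 46 initiation factor genes (rows, grouped by role) at 0, 2, 6, 12, 18 and 24 h (columns), with blue for lower and red for higher in Ikaros cells and a dot where the limma adjusted p was under 0.05. Eif2b3 forms the darkest row, most eIF3 rows stay pale, and the dots number 2 at 2 h and 34 at 24 h.

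The genes first called at 0, 2, 6, 12, 18 and 24 h numbered 4, 1, 11, 15, 5 and 3, and 7 were called at no time. Matching counts over all genes were not made, so these numbers are a description. A first call is not an onset, since those at 0 h preceded induction. Of the 15 calls at 6 h, 2 held under every alternative fit. None was called at all 6 times. The 7 were Eif2d, Eif3a, Eif3f, Eif3k, Eif4e2, Eif4g2 and Eif4h. With a replicate block Eif4h was called at 6 h, Eif2d at 12 h and Eif3a at 12 and 18 h, and with the 0 h cultures as a block of their own Eif4e2 at 2 h and Eif4g2 at 12 h too. Without batch 4 Eif3f was called at 18 and 24 h, Eif4g2 at 12, 18 and 24 h, Eif2d at 12 h and Eif3a at 12 and 18 h. Of the genes called at 18 h, 24 were called again at 24 h, each in the same direction, a count likewise not made over all genes. Myc, given as context, was lower by 1.63 on the log2 scale at 2 h (SE 0.17, limma adjusted p 4.97e-08) and by 2.52 at 24 h (SE 0.17, limma adjusted p 5.99e-13), whereas at 2 h only Eif2s3y among the factors was called lower. Whether the Myc level bears on the factors was not tested.

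The 4 genes of eIF2 subunits were all called lower at 24 h. One of them, Eif2s3y, was already lower at 0 h (-0.92), and the change of its difference to 24 h was not called. Of the genes of eIF2B 4 of 5 were lower and 1, Eif2b2, was higher. Among all genes 31.9% were lower and 31.0% higher. Eif2b3 encodes the gamma subunit, which with the epsilon subunit forms the catalytic part of eIF2B. It lies at chr4:117019402-117087306 (mm10, plus strand). In batches 1, 3 and 4 at 24 h its values were 12.51, 12.73 and 12.86 in control and 9.80, 10.41 and 10.02 in Ikaros cells. Every Ikaros library was below every control library at 6, 12, 18 and 24 h, and the gap widened until 18 h and then held. At 6, 12, 18 and 24 h the log2 differences were -1.22, -1.84, -2.58 and -2.62 (SE 0.17, limma adjusted p 4.14e-13 for the last), the largest fall of the 46 genes. At 24 h the Ikaros level was thus 0.162 of control, and no 75-base window of its longest transcript recurs in another gene. The other subunits fell less. At 24 h the log2 difference was -0.90 for Eif2b1 (alpha, SE 0.16), -0.69 for Eif2b5 (epsilon, SE 0.07) and -0.39 for Eif2b4 (delta, SE 0.12), all called, with limma adjusted p of 1.95e-05, 2.57e-09 and 0.00632. Without the second batch the call of Eif2b4 at 24 h was lost.

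Within eIF2 itself the alpha and beta subunits moved most. Eif2s1 encodes eIF2 alpha, the subunit that stress kinases phosphorylate, and lies at chr12:78861819-78887010 (mm10, plus strand). At 24 h it read 16.81, 16.76 and 17.11 in control and 15.19, 15.23 and 15.18 in Ikaros cells, so that the groups were far apart and the Ikaros libraries nearly identical. Over 12, 18 and 24 h the log2 differences were -0.53, -1.18 and -1.69 (SE 0.19, limma adjusted p 1.21e-08 for the last). Without batch 1 and without the second batch the 12 h call of Eif2s1 was lost. The beta subunit gene Eif2s2 read 15.36, 15.28 and 15.93 in control and 13.47, 13.98 and 13.71 in Ikaros cells at 24 h. Its control libraries scattered widely over the course, and it passed the test only at 18 h (-1.86) and 24 h (-1.80, SE 0.34, limma adjusted p 5.40e-05). Some 22.4% of its 75-base windows recur in a pseudogene, Gm9892. The gamma subunit has an X-linked and a Y-linked gene, Eif2s3x and Eif2s3y, and these differed between the lines already at 0 h. Eif2s3x read 15.27, 15.30 and 15.30 in control and 15.74, 15.56 and 15.73 in Ikaros cells at 0 h, a difference of 0.39 (SE 0.11, limma adjusted p 0.0297). By 24 h the order had turned, with 15.29, 15.42 and 15.24 against 15.02, 15.04 and 15.01, a difference of -0.30 (SE 0.11, limma adjusted p 0.0250). The change of the difference between 0 and 24 h was itself called at -0.68. At 6 h Eif2s3x was still higher (0.30, SE 0.11, limma adjusted p 0.0408).

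Eif2s3y started from the opposite side. At 0 h it read 12.67, 12.62 and 12.34 in control and 11.76, 11.51 and 11.58 in Ikaros cells. The first 3 time points gave differences of -0.92, -1.14 and -0.97 (SE 0.23, limma adjusted p 0.0108, 0.000814 and 0.00187). Neither 12 h (-0.43) nor 18 h (-0.42) was called, and the 24 h difference was -0.66 (limma adjusted p 0.0161). With the 0 h cultures as a replicate block of their own it was called at 12 and 18 h as well. The groups overlapped at 12 and 18 h. The change of the difference of Eif2s3y from 0 h was not called at any later time (0.50 at 18 h, limma adjusted p 0.231, and 0.26 at 24 h, limma adjusted p 0.54). None of its 75-base windows recurs elsewhere, against 35.7% of those of Eif2s3x. The calls of Eif2s3x and Eif2s3y at 0 and 24 h were lost without batch 1 and without the second batch, that of Eif2s3x at 6 h without any batch, and those of Eif2s3y at 2 and 6 h without batch 1.

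Eif2b2, the beta subunit of eIF2B, also turned. At 0 h it read 13.44, 13.48 and 13.45 in control and 13.06, 13.16 and 13.12 in Ikaros cells, a difference of -0.34 (SE 0.08, limma adjusted p 0.00347). At 24 h it read 13.50, 13.45 and 13.38 in control and 13.69, 13.64 and 13.76 in Ikaros cells, a difference of 0.25 (SE 0.08, limma adjusted p 0.00532). The groups did not overlap at either time and their order was reversed, with a change of 0.60 (SE 0.11) between the 2 times. At 6 h the difference was -0.22 (limma adjusted p 0.0273). Each of these calls of Eif2b2 was lost without batch 1 and without the second batch. Of the other carriers of the initiator tRNA, Eif2a was higher at 24 h only, by 0.40 (SE 0.16, limma adjusted p 0.0299), with 13.89, 14.02 and 13.46 in control and 14.14, 14.15 and 14.28 in Ikaros cells. Its lowest control library, batch 4, carries much of that gap: without batch 4 the difference was 0.19 and the call was lost, as it was without batch 1. Eif2d was called at no time with all batches and no replicate block.

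**Figure D2:**
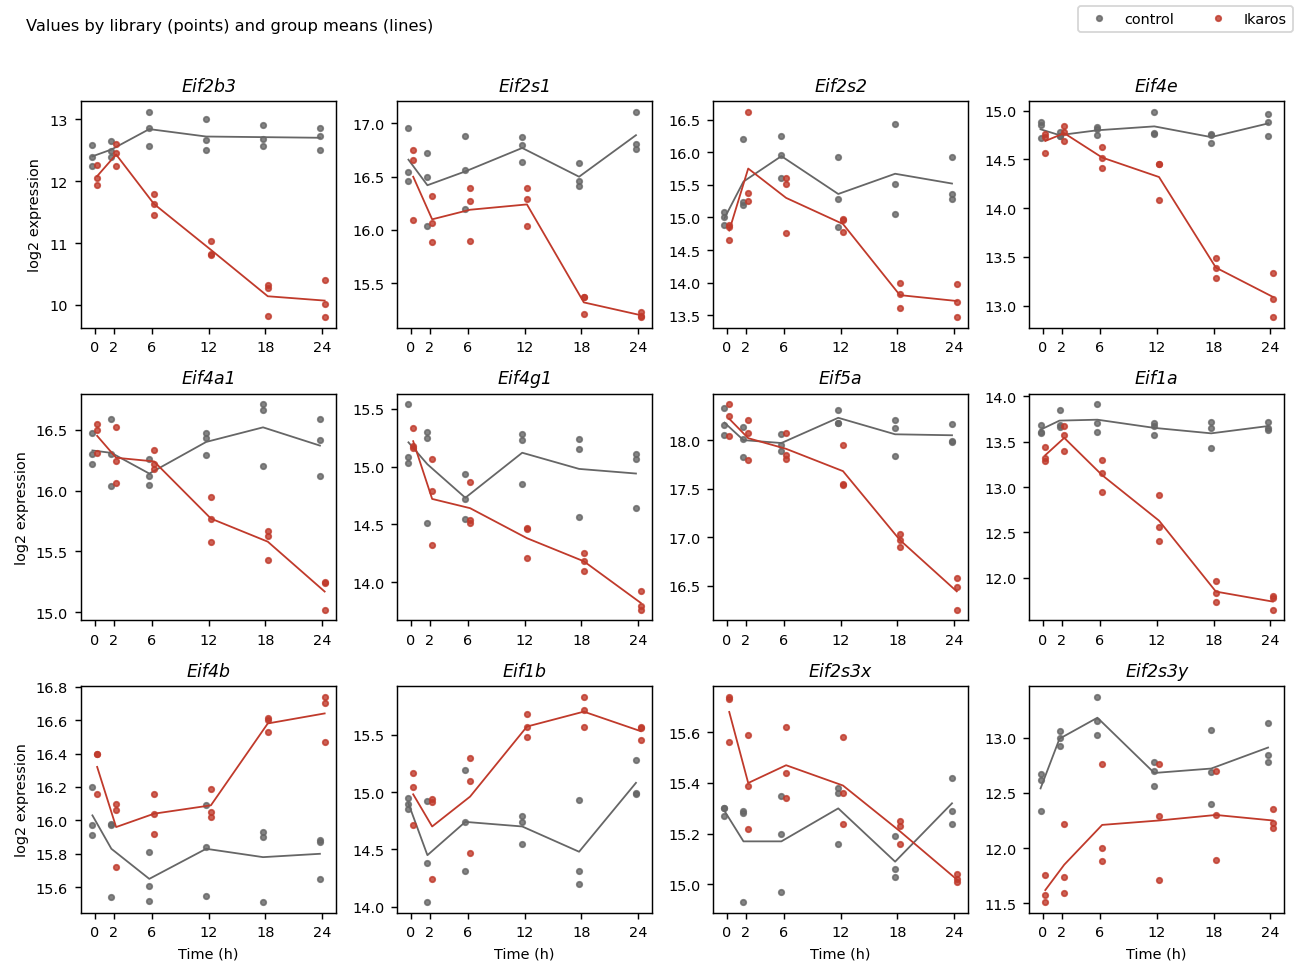
Log2 expression (vertical axes, each with its own range) against time in h for 12 initiation factor genes, with a point for each library and a line through the mean of the 3 libraries of each group, grey for control and red for Ikaros cells. The first 8 panels separate downward by 24 h, Eif4b and Eif1b run above control late in the course, and Eif2s3x and Eif2s3y differ at 0 h.

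The mRNAs of Eif4e, Eif4a1 and Eif4g1, which encode core parts of the cap-binding complex eIF4F, were lower than control at 24 h. That of Eif4b, which encodes a stimulator of the helicase, was higher than control. Eif4e encodes the protein that binds the cap. It lies at chr3:138526179-138559696 (mm10, plus strand), and at 24 h its values were 14.74, 14.97 and 14.89 in control and 12.88, 13.33 and 13.07 in Ikaros cells. The groups did not overlap, and from 6 h on the log2 differences were -0.27, -0.52, -1.34 and -1.77 (SE 0.11, limma adjusted p 6.66e-14 for the last). The 6 h call of Eif4e was lost on leaving out any batch. Eif4a1, the main eIF4A helicase, had log2 differences of -0.63, -0.94 and -1.20 over the last 3 time points (SE 0.15, limma adjusted p 8.16e-08 for the last). It read 16.42, 16.59 and 16.12 in control and 15.02, 15.24 and 15.25 in Ikaros cells at 24 h, again without overlap, but 62.9% of its 75-base windows recur in other genes, among them Eif4a-ps4. The scaffold gene Eif4g1 read 15.07, 15.11 and 14.64 in control and 13.79, 13.76 and 13.92 in Ikaros cells at 24 h. From 12 h on its log2 differences were -0.74, -0.81 and -1.12 (SE 0.21, limma adjusted p 3.85e-05 for the last). The 12 h calls of Eif4a1 and Eif4g1 were lost without the second batch, and the 12 and 18 h calls of Eif4g1 without either batch 1 or the second batch.

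The promoters of these genes were read from the RefSeq promoter table (GRCm38.p6), which held 37 of the 46 factors, to show the E-box CACGTG, the letters that Myc and its relatives bind. Within the 250 bases upstream of an annotated start, searched on both strands of this palindrome, CACGTG stood in 8 of the 37 factors (21.6%), in 9.92% of the 8586 measured genes with an entry and in 6.86% of all 27025 genes. Of the 23 factors called lower at 24 h with an entry, 4 held it (Eif4e, Eif4a1, Eif5a and Eif4g1), as did 4 of 11 that were not called (Eif4h, Eif3k, Eif3f and Eif1b) and 0 of 3 called higher. The second motif searched, TGGGAA, which holds the core bound by Ikaros, stood on either strand in 9 of 37 factors (24.3%), 23.1% of measured genes and 24.1% of all genes. A match is a description of these letters and says nothing of binding. Windows of 60 bases around CACGTG, in capitals, are shown for 3 factors that fell and, to set beside them, 2 that were called at no time, all outside annotated exons and written 5′ to 3′ on the gene's strand. They are Eif4a1 (chr11:69672580-69672639, minus strand), Eif4g1 (chr16:20672646-20672705, plus strand), Eif5a (chr11:69921428-69921487, minus strand), Eif3k (chr7:28981900-28981959, minus strand) and Eif3f (chr7:108934320-108934379, plus strand).
Eif4a1: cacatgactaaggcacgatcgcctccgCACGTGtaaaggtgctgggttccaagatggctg
Eif4g1: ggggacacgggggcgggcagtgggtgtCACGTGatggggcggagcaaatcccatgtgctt
Eif5a: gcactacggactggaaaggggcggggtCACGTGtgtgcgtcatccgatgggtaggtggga
Eif3k: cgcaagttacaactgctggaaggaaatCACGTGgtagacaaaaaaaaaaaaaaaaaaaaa
Eif3f: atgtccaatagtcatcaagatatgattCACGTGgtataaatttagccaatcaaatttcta

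Around the core of eIF4F some genes were lower, some higher and some were not called. The second helicase gene Eif4a2 was lower from 12 h (-0.40, lost without the second batch and without batch 4) to 24 h (-0.73, SE 0.13, limma adjusted p 1.58e-05). Eif4a3, which belongs to the exon junction complex rather than to eIF4F, was higher at 2 h (0.26, SE 0.09, limma adjusted p 0.0356) and 6 h (0.36, SE 0.09, limma adjusted p 0.00161), the former lost without batch 1 and without the second batch, and read -0.08 at 24 h without a call. Eif4b, which stimulates the helicase, showed the largest called difference above control at 24 h. It read 15.87, 15.88 and 15.65 in control and 16.74, 16.47 and 16.70 in Ikaros cells, a difference of 0.84 (SE 0.14, limma adjusted p 1.21e-05), after 0.80 at 18 h (limma adjusted p 2.76e-05) and 0.39 at 6 h (limma adjusted p 0.0328). At 12 h the 0.26 was not called (limma adjusted p 0.142), but it was with a replicate block, and the 6 h call of Eif4b was lost without batch 1 and without the second batch. Eif4b at chr15:102073773-102097173 (mm10, plus strand) holds no CACGTG in its upstream window. Eif4h, its shorter relative, was called at no time without the block.

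Among the cap-binding relatives, Eif4e3 was the least abundant of all 46 genes, with a mean of 10.26 ± 0.12 (SD, n = 3) in control cells at 0 h on this length-adjusted scale. It was called lower at 6 h and higher at 12 and 24 h, while the 0.27 at 18 h was not called (limma adjusted p 0.09). The 18 h difference was called with the 0 h cultures as a replicate block of their own and without batch 4. At 6 h it read 10.20, 10.22 and 10.67 in control and 9.93, 9.95 and 9.78 in Ikaros cells (difference -0.48, SE 0.13, limma adjusted p 0.00691). At 12 h it read 10.19, 10.34 and 10.55 against 10.73, 10.80 and 10.84 (0.43, SE 0.13, limma adjusted p 0.0108), and at 24 h 10.31, 10.38 and 10.55 against 10.77, 10.81 and 10.94 (0.42, SE 0.13, limma adjusted p 0.00816). The groups were apart in each case and their order switched between 6 and 12 h. Without the second batch none of the 3 calls of Eif4e3 held, without batch 1 those at 12 and 24 h did not, and without batch 4 that at 6 h did not. Eif4enif1, which binds eIF4E and represses its mRNAs, was higher at 12 h (0.29, SE 0.09) and lower at 24 h (-0.26, SE 0.09), with limma adjusted p of 0.00875 and 0.0143. The 24 h call of Eif4enif1 was lost on leaving out any batch, and the 12 h call without batch 1 and without the second batch. With all batches and no replicate block, the repressive cap binder Eif4e2 and the scaffold-like Eif4g2 were called at no time. Eif4g2 lacks the eIF4E site. The second scaffold Eif4g3 was lower at 18 h only (-0.41, SE 0.13, limma adjusted p 0.00843), a call lost without batch 1 and without the second batch.

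The scanning factor eIF1A is encoded by a pair of genes and both fell. Eif1a read 13.72, 13.65 and 13.63 in control and 11.65, 11.78 and 11.80 in Ikaros cells at 24 h. Replicates lay close together and the groups far apart. From 6 h on the log2 differences were -0.60, -1.02, -1.74 and -1.92 (SE 0.11, limma adjusted p 5.33e-14 for the last). The X-linked Eif1ax read 14.45, 14.40 and 14.86 in control and 12.89, 13.41 and 12.68 in Ikaros cells at 24 h. It came later than Eif1a, with calls at 18 h (-1.09) and 24 h (-1.58, SE 0.26, limma adjusted p 5.90e-06). Eif1, which guards start codon choice, moved little and was called at 18 h only (-0.37, SE 0.13, limma adjusted p 0.0178), and Eif1ad, a related gene, had differences of -0.50, -0.28 and -0.22 over the last 3 time points. Without batch 1 and without the second batch the call of Eif1 and the 18 and 24 h calls of Eif1ad were lost.

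The Eif1 paralog Eif1b went the other way for part of the course. At 12 h Eif1b read 14.79, 14.74 and 14.55 in control and 15.48, 15.57 and 15.68 in Ikaros cells, and at 18 h 14.93, 14.31 and 14.20 against 15.71, 15.57 and 15.83. The groups were apart at both times, with differences of 0.88 and 1.23 (SE 0.23 at each, limma adjusted p 0.00309 and 6.48e-05). At 24 h it read 14.98, 14.99 and 15.28 against 15.57, 15.45 and 15.56, still apart, but the difference of 0.44 was not called (limma adjusted p 0.1). The Ikaros libraries lay between 15.45 and 15.83 from 12 h on, and the control libraries were higher at 24 h than at 12 h. The 12 h call of Eif1b was lost without the second batch.

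All 4 genes of the eIF5 group and eIF6 were lower at 18 and 24 h, where 29.2% and 31.9% of all genes were. Eif5a encodes the hypusine-modified factor that helps the ribosome through difficult peptide bonds, and after Eif3h it was the most abundant of the 46 (18.18 ± 0.14, SD, n = 3, in control cells at 0 h). It lies at chr11:69916714-69921958 (mm10, minus strand). It read 17.99, 18.17 and 17.98 in control and 16.25, 16.58 and 16.49 in Ikaros cells at 24 h, with no overlap. The log2 difference of -0.06 at 6 h was not called, and those of the last 3 time points were -0.55, -1.09 and -1.60 (SE 0.13, limma adjusted p 2.89e-11 for the last). Without batch 1 the 12 h call of Eif5a was lost. Eif6, which keeps free large subunits from joining, had a difference of -0.56 at 6 h, lost without batch 1, and of -1.16 at 24 h (SE 0.15, limma adjusted p 1.90e-07). The GTPase-activating factor Eif5 was lower by 0.61 at 24 h (SE 0.15) and the subunit-joining GTPase Eif5b by 0.69 (SE 0.25), after 1.10 at 18 h. Without batch 1 and without the second batch the 24 h call of Eif5b was lost.

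Most genes of eIF3, the largest initiation complex, changed little. Of its 14 genes 10 were called at 24 h, 9 lower and 1 higher (all genes 62.9% called, 31.9% lower and 31.0% higher). The median difference of the 14 was -0.29, beside -1.18 for the 4 eIF2 genes, of which Eif2s3y was already lower at 0 h. The largest falls were those of the pair Eif3j1 and Eif3j2, which encode the loosely bound j subunit, and then that of Eif3b. Eif3j1 read 12.56, 12.64 and 12.89 in control and 11.01, 10.69 and 10.78 in Ikaros cells at 24 h. From 6 h on its log2 differences were -0.70, -1.15, -1.85 and -1.87 (SE 0.20, limma adjusted p 4.97e-09 for the last). Eif3j2 followed with -0.71, -1.20, -1.87 and -1.52 (SE 0.18). Without the second batch the 6 h calls of Eif3j1 and Eif3j2 were lost, and without batch 1 that of Eif3j1. The 2 share sequence, with 87.4% of the 75-base windows of Eif3j2 and 37.7% of those of Eif3j1 recurring elsewhere, so their values are not independent and the split of reads between them is uncertain. Eif3b, an RNA-binding core subunit, had log2 differences of -0.43, -0.81 and -0.95 over the last 3 time points (SE 0.08, limma adjusted p 6.09e-11 for the last).

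Most other eIF3 subunits were within 0.5 of control at 24 h on the log2 scale. Eif3d, which can bind the cap, was lower by 0.38 at 24 h (SE 0.10), Eif3g by 0.43 (SE 0.15), Eif3i by 0.42 (SE 0.14) and Eif3m by 0.31 (SE 0.13). Eif3e (-0.25) and Eif3l (-0.27) were called at 24 h too, and Eif3c was called at 12 h (-0.19) and 18 h (-0.21) but not at 24 h (-0.13). The 12 h call of Eif3c was lost on leaving out any batch, and the 18 h call without the second batch. The 24 h calls of Eif3d, Eif3g, Eif3i, Eif3m, Eif3e and Eif3l were lost without the second batch, and all but that of Eif3d without batch 1 too. The scaffold Eif3a read -0.29 at 12 h and 18 h without a call, and both were called with a replicate block. Eif3f (0.36) and Eif3k (0.05) were not called at 24 h. Eif3h, an outer subunit, read 18.33, 18.25 and 18.31 in control and 18.02, 17.90 and 18.10 in Ikaros cells at 0 h (difference -0.29, SE 0.09, limma adjusted p 0.0352). By 24 h it read 18.23, 18.23 and 18.28 in control and 18.53, 18.39 and 18.51 in Ikaros cells (0.23, SE 0.09, limma adjusted p 0.0244). The groups of Eif3h were apart in opposite order at the 2 times, the change of 0.52 was called, and the single-time calls were lost on leaving out any 1 batch.

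**Figure D3:**
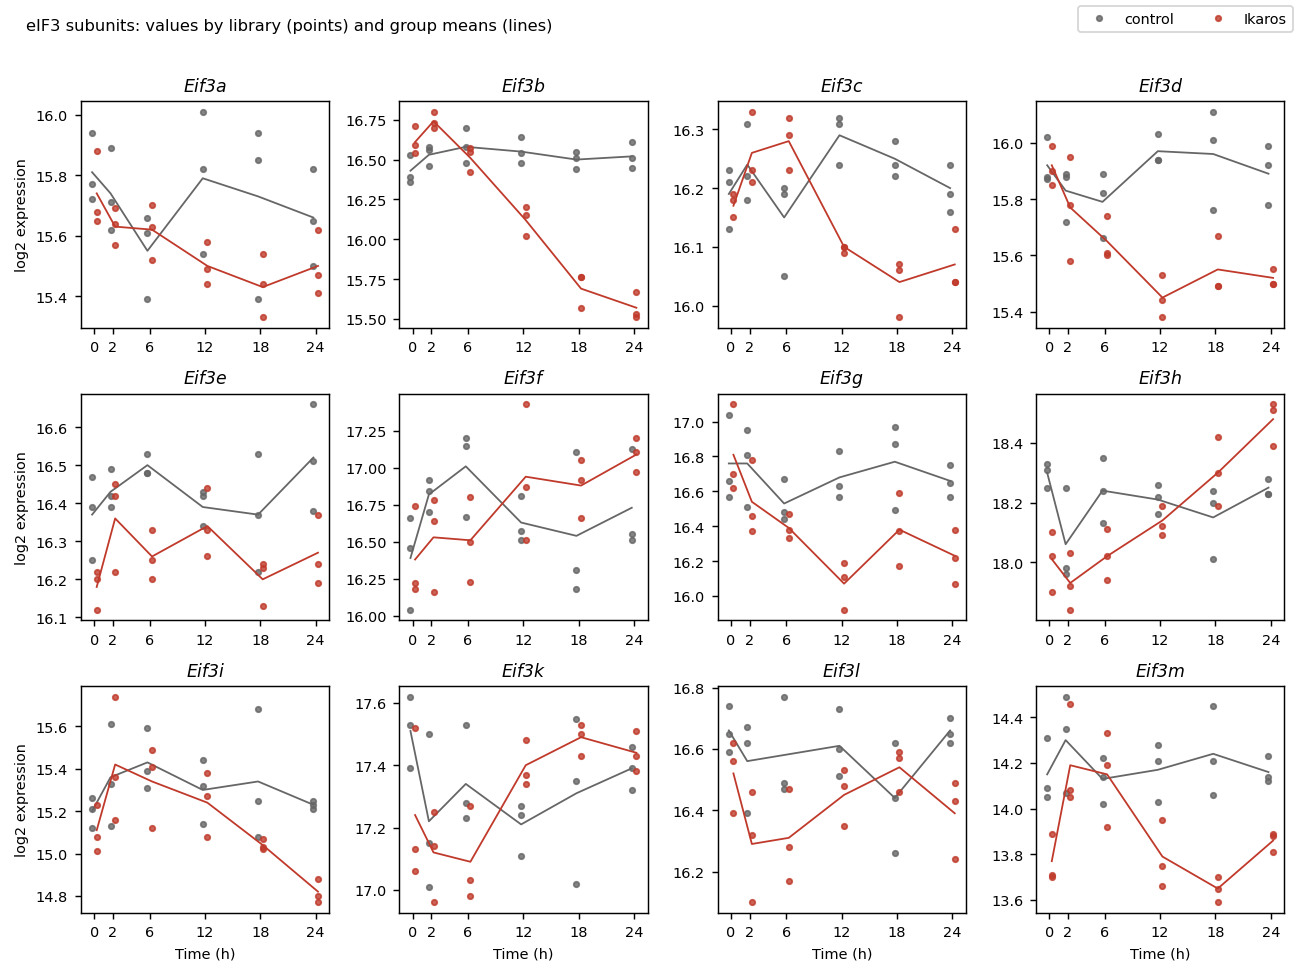
Log2 expression (vertical axes, each with its own range, most of them narrow) against time in h for the 12 eIF3 genes other than the j pair, with a point per library and lines through group means, grey for control and red for Ikaros cells. Eif3b falls by 0.95 relative to control at 24 h, while the groups of Eif3a, Eif3f and Eif3k overlap there.

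**Figure D4:**
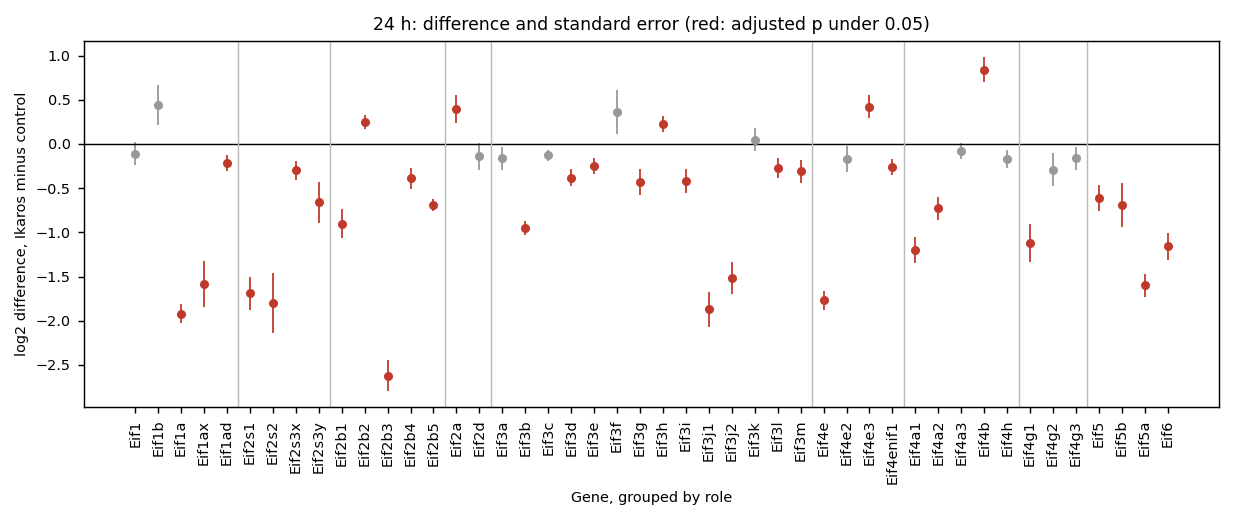
Log2 difference of Ikaros minus control at 24 h (vertical axis) with its standard error for the 46 genes, ordered by role with grey lines between roles, red where the limma adjusted p was under 0.05 and grey otherwise. Values run from -2.62 (Eif2b3) to 0.84 (Eif4b), and most eIF3 genes lie between -0.5 and 0.4.

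From 12 h on, the falls lay mainly within the Ikaros line. Within Ikaros cells the factors called against 0 h numbered 4 at 2 h (all genes 19.2%), each of them higher (all genes 9.54%), 9 at 6 h (all genes 32.8%), 26 at 12 h (all genes 46.1%), 27 at 18 h (all genes 54.6%) and 30 at 24 h (all genes 60.6%), of which 24 were lower (all genes 29.6%) and 6 higher (all genes 31.0%). Within control cells limma called 0 at 2, 12, 18 and 24 h, with 2, 1, 4 and 1 at an unadjusted p under 0.05, where 0.047%, 0.0549%, 0.478% and 0.47% of all genes were called. At 6 h it called Eif6 alone in control cells (0.52 higher, limma adjusted p 0.0431, all genes 5.1%). The difference between the lines for Eif6 was -0.56 at that time. Eif2b3 fell by 2.01 between 0 and 24 h in Ikaros cells (SE 0.17) and read 0.30 above its 0 h level in control cells (SE 0.17, not called). Eif5a fell by 1.78 (SE 0.13) and Eif4e by 1.59 (SE 0.11) in Ikaros cells, with control changes of -0.13 and 0.05. For Eif4b the rise was smaller within the line, with 0.32 in Ikaros cells (SE 0.14, limma adjusted p 0.0556) and -0.22 in control cells, neither called. With a replicate block the Ikaros counts at 2 and 6 h were 15 and 15, and the control count at 6 h was 10. Without batch 1, without the second batch and without batch 4 the Ikaros counts were 2, 0 and 1 at 2 h and 2, 1 and 6 at 6 h, and the control count at 6 h was 0 each time. Without the second batch both the 12 and the 18 h Ikaros count was 16.

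Whether the difference between the lines itself moved from its 0 h value was tested as a change of the difference. That test called 0 factors at 2 h (limma, also 0 at an unadjusted p under 0.05, all genes 3.1%) and, beyond that, 1 at 6 h (all genes 15.9%), 18 at 12 h (all genes 29.7%), 24 at 18 h (all genes 43.0%) and 22 at 24 h (all genes 48.4%). The gene at 6 h was Eif2b3 (-0.90, SE 0.24, limma adjusted p 0.0109), and with a replicate block 4 were called there. At 24 h 19 of the changes were downward (all genes 24.2%), led by Eif2b3 (-2.30), and 3 were upward (all genes 24.2%), namely Eif2b2, Eif4b and Eif3h. Since the 0 h cells were separate cultures, the same test was made from 2 h to 24 h, where 25 factors were called (all genes 47.3%), 3 higher (all genes 23.3%) and 22 lower (all genes 24.0%). Over all 5 later times together the F test called 31 (all genes 59.8%). Without batch 1 the 12 h, 18 h, 2 to 24 h and F test counts were 9, 15, 16 and 15, and without the second batch 3, 10, 16 and 13. At 6 h no factor was called without the second batch or without batch 4.

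Lists of other genes around initiation are read against all genes, of which 62.9% were called at 24 h, 31.0% higher and 31.9% lower. Of 17 brakes and regulators 13 were called at 24 h, 6 higher (35.3%) and 7 lower (41.2%), shares near those of all genes, with a median difference of -0.01. Pdcd4, an inhibitor of the eIF4A helicase, was higher by 2.88 (SE 0.18, limma adjusted p 1.51e-13), with 10.85, 11.02 and 10.22 in control and 13.48, 13.54 and 13.69 in Ikaros cells. Eif4ebp1, the binding protein that holds eIF4E away from the scaffold, was lower by 2.86 (SE 0.17, limma adjusted p 6.34e-14), with 17.08, 16.88 and 17.53 in control and 14.36, 14.48 and 14.06 in Ikaros cells. Both gaps were wider than that of any of the 46 factors, and in neither did the groups overlap. Among the kinases of eIF2 alpha, Eif2ak3 was higher by 1.11 (SE 0.11), while Larp1, which represses mRNAs of the translation machinery, was lower by 1.62 (SE 0.13).

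Helpers of initiation without an Eif symbol were called lower in 6 of 12 (50.0%, all genes 31.9%) and higher in none (all genes 31.0%), with Abce1, which splits ribosomes for reuse, at -1.79 (SE 0.07) and the poly(A)-binding Pabpc4 at -1.23 (SE 0.15). The elongation and release list of 16 genes also holds mitochondrial factors, some of them for initiation, a gene of the synthetase complex and a kinase. Of the 16, 11 were lower (68.8%, all genes 31.9%) and 3 higher (18.8%, all genes 31.0%). Eef1e1, a part of the tRNA synthetase complex, stood at -2.12 (SE 0.18) and the release factor Gspt1 at -1.55 (SE 0.12), against 2.10 (SE 0.12) for Eef2k, the kinase that inhibits the elongation factor eEF2, and 0.97 (SE 0.15) for the mitochondrial initiation factor Mtif3. In the mTORC1 list 4 of 12 were lower (33.3%, all genes 31.9%) and 2 higher (16.7%, all genes 31.0%), with the inhibitor Deptor at -4.31 (SE 0.39), the scaffold Rptor at -0.98 (SE 0.11), and the GTPase gene Rragc and the TSC complex gene Tbc1d7 at 1.09 (SE 0.11) and 0.37 (SE 0.14). All of these named differences passed the limma test at 24 h.

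**Figure D5:**
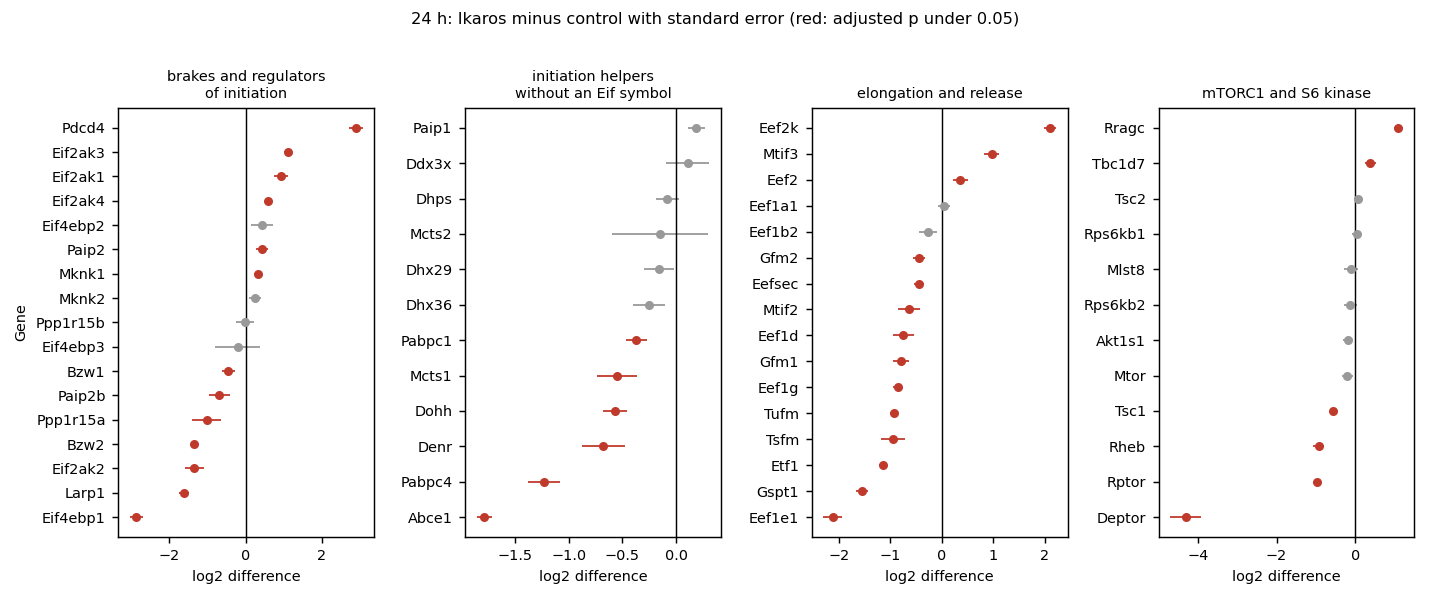
Log2 difference of Ikaros minus control at 24 h (horizontal axes, each with its own range) with its standard error for the genes of 4 lists around initiation, red where the limma adjusted p was under 0.05. Pdcd4 at 2.88 and Eif4ebp1 at -2.86 bound the list of brakes, and no called helper lies to the right of 0.

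The 3 genes whose 12 group means ran most like the median course of the 29 factors called lower at 24 h were Dkc1 (Pearson's r 0.9972), Tbrg4 (0.9967) and Nol10 (0.9963). The 12 points share lines, batches and libraries, and the course compared was built from genes chosen for falling, so the values are a description.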

How the data were processed

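Strand-specific mRNA sequencing (75 bases, paired ends) covered 36 libraries of mouse B3 cells, grouped by line and time from the labels. The authors aligned fragments to mm10 with TopHat2 keeping unique best hits, counted genes with HTSeq, normalized with cqn for GC content and length and adjusted for library preparation with non-parametric ComBat. The deposited values are log2 expression, shifted so that the lowest value of the table is 1, and the base of the logarithm follows from cqn. Counts were not used here, so the depth reached per library is unknown, though the study states a target, and 3 libraries per group limit precision. In the study each library was split before sequencing, and a library here stands for a whole sample. Adjustment before deposition may make standard errors too small. The annotation and strand setting of the counting are not given in the sources used here. Of the 46 genes 25 overlap another annotated gene, 14 of them a gene on the opposite strand, where the assignment of reads is uncertain.

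All comparisons used limma 3.58.1 in R 4.3.3, in which each of the 12 groups had its own mean in 1 joint model, two-sided p-values and Benjamini-Hochberg adjustment over all 12762 genes, called under 0.05, and the model was tested on simulated data. The study states no test for these values. Full statistics went to the 8 largest called rises and falls at 24 h with groups that did not overlap, to genes called in opposite directions at 2 or 6 h and 24 h, and to genes called at 0 h. Members and lists were chosen with earlier results of these data known. In the study's methods a batch is a repeat of the time course, with the lines in separate flasks and the 0 h cells obtained apart. Same-numbered libraries of the 2 lines correlated in their deviations at -0.062 to 0.507 (median 0.127, over 0.1 in 12 of 18 pairs), so a replicate block was an alternative. The others were a replicate block with separate 0 h cultures, median centring, quantile normalization, dropping genes under the 25th percentile of mean expression, trended and robust variance, only the groups compared, and leaving out each replicate. Positions and 75-base windows shared between transcripts came from GENCODE mouse release 21 (GRCm38, the same build as mm10), where 46 of 46 genes were found by identifier. Python 3.11.15 was used for summaries.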

Additional observations from a re-analysis of the deposited data

Results flagged for a closer look

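Differences between the lines were compared between time points, each later one against 0 h, by the change of the difference in limma with Benjamini-Hochberg adjustment. At 2 h limma called 0 factors (0 at an unadjusted p under 0.05, all genes 3.1%). At 6, 12, 18 and 24 h it called 1, 18, 24 and 22 of the 46, beside 15.9%, 29.7%, 43.0% and 48.4% of all genes. The count at 24 h was thus near the share of all genes. The F test that joins the 5 later times called 31 (all genes 59.8%). Among the genes described with full statistics, the difference changed between 0 and 24 h by -2.30 for Eif2b3, -1.66 for Eif3j1, -1.65 for Eif4e, -1.64 for Eif1a, -1.64 for Eif5a, -1.61 for Eif2s2, -1.54 for Eif2s1, -1.30 for Eif1ax and -0.68 for Eif2s3x. It changed upward by 0.60 for Eif2b2, 0.54 for Eif4b and 0.52 for Eif3h. The 0 h cells were separate cultures, and what that contributes cannot be told apart from time. Outlying libraries were not looked for, since groups of 3 are too small for the test.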

How the results depend on the processing

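Filtering, quantile normalization, median centring and the trended, robust prior moved no count of called factors by over 1.5 times, and no called factor changed sign under any alternative. Calls that held under every alternative numbered 0 of 4 at 0 h, 0 of 2 at 2 h, 2 of 15 at 6 h, 11 of 24 at 12 h, 21 of 28 at 18 h and 18 of 34 at 24 h. With the replicate block, which pairs the lines by batch, 4 factors changed their difference by 6 h, 15 were called in Ikaros cells at 2 h and 15 at 6 h, and 10 in control cells at 6 h. With separate 0 h cultures as a block of their own these were 3, 13, 14 and 11, and 5 factors were called between the lines at 2 h. With only the groups compared, 1 and 2 were called between the lines at 2 h and 6 h, 0 and 3 in Ikaros cells at 2 h and 6 h, and 0 in control cells at 6 h. Neither block moved any other count of factors by over 1.5 times, and the cause of these shifts was not tested. Over all genes, the 1063 calls between the lines at 0 h were 701 without low genes, and the 2432 and 4759 at 2 and 6 h were 860 and 2150 with only the groups compared.

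Leaving out each replicate in turn gave 0 to 3 factors between the lines at 0 h, 0 to 3 at 2 h, 5 to 12 at 6 h, 13 to 25 at 12 h, 21 to 34 at 18 h and 19 to 34 at 24 h. It gave 0 to 1, 3 to 20, 10 to 25 and 15 to 28 changes of the difference by 6, 12, 18 and 24 h, 16 to 29 from 2 h to 24 h and 13 to 34 for the F test. In Ikaros cells it gave 0 to 2, 1 to 6, 16 to 24 and 16 to 29 at 2, 6, 12 and 18 h, and in control cells at 6 h 0 each time. Over all genes the lowest counts between the lines were then 318, 804, 2640 and 3769 at 0, 2, 6 and 12 h, the last of 5850, and the 6180 changes by 24 h fell to 4056. Among the genes described with full statistics, the calls that weakened were those of Eif2b2, Eif3h, Eif2s3x, Eif2s3y, Eif4e3 and Eif2a at each time at which they were called, Eif4b, Eif3j1 and Eif4e at 6 h, and Eif2s1 and Eif5a at 12 h. The 24 h calls of Eif2b3, Eif1a, Eif3j1, Eif2s2, Eif4e, Eif2s1, Eif5a, Eif1ax and Eif4b held under every alternative. With no depth in the table, counting error cannot be separated from the spread between libraries.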
